A study of Mus musculus with 8 samples.

Results

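Inflammatory chemokines were followed in thymic epithelial cells (TECs) as 10 genes, *Cxcl1*, *Cxcl2*, *Cxcl3*, *Cxcl5*, *Ppbp* (also called Cxcl7), *Pf4* (Cxcl4), *Cxcl10*, *Cxcl16*, *Ccl20* and *Ccl2*, out of 56923 gene rows in the count data. They were chosen by their levels in the 4 groups compared here, among inducible CXC and CC chemokines, and found in the data by their Ensembl mouse identifiers. Their levels and differences between groups are therefore a description, given without a test, and tests are given for related genes outside the choice. The lists of related genes were also drawn up with earlier results of these data known. They include CXC and CC chemokines that were not chosen.

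All TECs came from the thymi of wild-type C57BL/6J mouse embryos at E16.5 and are labelled as untreated. *In vivo* TECs were sorted as EpCAM+ cells after TrypLE digestion and lysed directly. For the other groups, the sorted TECs were cultured in TEC medium, which contains FGF7, either in 2D on plates coated with laminin for 3 days, or as organoids embedded in Matrigel and freed from it in cold PBS after 3 days (D3) or 7 days (D7). The organoid medium also held thiazovivin for the first 2 days, and whether the 2D medium did is not given in the sources used here. Each group held 2 libraries, labelled as biological replicates 1 and 2 and called the first and the second library here. With 2 libraries a group, an SD is a rough measure of spread. RNA was counted at the 3′ ends of transcripts with the QuantSeq method.

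Chemokines are small secreted proteins that draw leukocytes along gradients by binding G protein-coupled receptors. CXC chemokines with the ELR motif (*Cxcl1*, *Cxcl2*, *Cxcl3*, *Cxcl5* and processed *Ppbp*) act on neutrophils through *Cxcr2*, whereas *Cxcl10* draws activated T cells through *Cxcr3*, *Cxcl16* binds *Cxcr6*, *Ccl20* binds *Ccr6* and *Ccl2* draws monocytes through *Ccr2*. Many of these genes are switched on by NF-κB after interleukin 1, TNF, interleukin 17 or Toll-like receptor signals, and *Cxcl10* also by interferons, while the thymus is best known for a different set of constitutive chemokines that guide T-cell progenitors.

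Libraries held between 5084715 and 7612532 counts, with 16748 to 19943 genes detected. Genes of ribosomal RNA took 22.7% to 29.4% of the counts. Levels are given as CPM, the counts scaled to libraries of a common size, after scaling by trimmed mean of M-values (TMM), as mean ± SD over 2 libraries, and 3 counts or fewer in a library were taken as the floor of detection. Because each transcript is counted at its 3′ end, levels were not divided by length, and levels of different genes are not compared. In bulk RNA, fewer cells of a type and less RNA per cell cannot be told apart. The p-values for related genes measure the spread between these libraries.

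Of the 10 genes, 6 lie on the plus strand of 1 stretch of mouse chromosome 5 of 146.6 kb (build GRCm39, chr5:90907186-91053797). In order they are *Cxcl5* (chr5:90907186-90909483), *Ppbp* (chr5:90916371-90917930), *Pf4* (chr5:90918479-90922110), *Cxcl3* (chr5:90933962-90937459), *Cxcl1* (chr5:91039094-91040974) and *Cxcl2* (chr5:91051730-91053797). *Ppbp* and *Pf4* are 548 bp apart. *Cxcl10* (chr5:92494497-92496748, minus strand) lies farther along the same chromosome, between *Cxcl9* and *Cxcl11*. *Ccl20* is at chr1:83094487-83096888 on the plus strand, *Cxcl16* at chr11:70344517-70352620 on the minus strand and *Ccl2* at chr11:81926397-81928279 on the plus strand. No gene overlaps a member on the same strand. *Med11* overlaps *Cxcl16* on the other strand with up to 154 counts, and *Art3* overlaps *Cxcl10* with up to 9, so a part of those counts could be shared if strand was not used in counting.

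Promoters of 7 of the 10 genes were found among RefSeq sequences of the older build GRCm38.p6, and those of *Cxcl5*, *Cxcl16* and *Ccl2* were not found. The 130 bases before the start are shown for 5 of them, the neighbours *Ppbp* and *Pf4* with unlike patterns, *Cxcl1* and *Cxcl2* from the other end of the cluster, and *Cxcl10*, which was highest *in vivo*. Capitals mark matches to the κB consensus, the motif that NF-κB binds. Positions in GRCm38.p6 are chr5:90768388-90768517, chr5:90772305-90772434, chr5:90891115-90891244 and chr5:90903769-90903898 on the plus strand and chr5:92348890-92349019 on the minus strand, in the order below.
Ppbp: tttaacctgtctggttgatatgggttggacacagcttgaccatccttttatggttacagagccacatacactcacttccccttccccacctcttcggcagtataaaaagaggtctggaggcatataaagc
Pf4: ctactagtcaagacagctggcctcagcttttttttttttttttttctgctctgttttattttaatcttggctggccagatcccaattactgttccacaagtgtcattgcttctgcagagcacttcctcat
Cxcl1: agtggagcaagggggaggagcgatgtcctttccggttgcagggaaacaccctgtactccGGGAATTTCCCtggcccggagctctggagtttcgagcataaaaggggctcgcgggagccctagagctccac
Cxcl2: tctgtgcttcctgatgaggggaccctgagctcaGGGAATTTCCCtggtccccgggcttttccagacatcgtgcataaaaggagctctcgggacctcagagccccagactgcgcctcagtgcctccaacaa
Cxcl10: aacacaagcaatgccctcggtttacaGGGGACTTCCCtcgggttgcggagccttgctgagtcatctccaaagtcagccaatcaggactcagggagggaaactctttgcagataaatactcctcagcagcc

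In the 250 bases before the start, searched on both strands, the κB consensus was found in 5 of the 7 promoters, those of *Cxcl1*, *Cxcl2*, *Cxcl3*, *Cxcl10* and *Ccl20*, and in 7.25% of 32851 promoters of the same length. *Cxcl1*, *Cxcl2* and *Cxcl3* hold the same 11 bases, which match on both strands with 10 bases each. In *Cxcl10*, 2 overlapping matches are capitalised as a single run, and another lies at bases -159 to -150 from the start. The AP-1 motif TGANTCA was found in *Ppbp*, at bases -204 to -198, and in *Cxcl10*, where it lies at -74 to -68 and overlaps no κB match, and in 6.75% of all promoters. *Ppbp* held no κB match and *Pf4* held neither motif in these windows. Judged by its distance from the *Ppbp* window, the *Pf4* window precedes a RefSeq start inside the gene as placed above. It does not precede the start next to *Ppbp*, and the bases before that start were not searched.

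**Figure D1:**
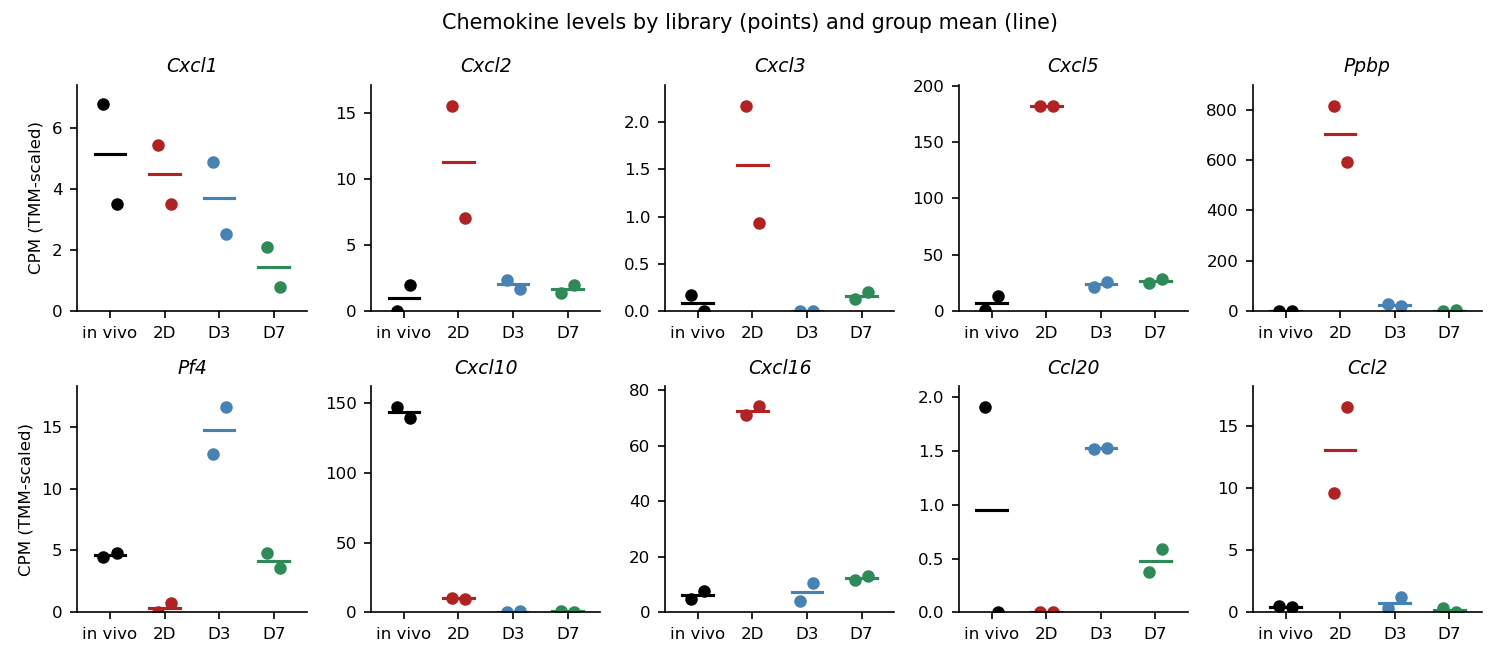
CPM of the 10 chemokine genes (vertical axes, linear, a scale for each gene) in the 4 groups (horizontal axis), with a point for each library and a line at the group mean. *Ppbp*, *Cxcl5*, *Cxcl16* and *Ccl2* are highest in both 2D libraries, *Pf4* in both D3 libraries and *Cxcl10* in both *in vivo* libraries.

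*Ppbp*, a platelet chemokine precursor whose processed form attracts neutrophils, had the widest range. It had 0 and 0 counts *in vivo*, 4505 and 3196 in 2D, 153 and 154 in D3 organoids and 9 and 10 in D7 organoids. The means were 704 ± 159 CPM in 2D, 23.6 ± 3.06 CPM in D3 organoids and 1.54 ± 0.606 CPM in D7 organoids, and the 4 groups did not overlap. Against the floor of 3 counts in each *in vivo* library, *Ppbp* was at least 1495-fold higher in 2D, and the bound was 50.1-fold for D3 organoids and 3.27-fold for D7 organoids. The fitted log2 fold change was -4.90 ± 0.22 (SE) for D3 organoids over 2D, at the same day of culture, and -4.00 ± 0.31 for D7 over D3 organoids.

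*Pf4*, the gene of platelet factor 4, which starts 548 bp beyond the end of *Ppbp*, was lowest in 2D, where *Ppbp* was highest. It had 26 and 34 counts *in vivo*, 0 and 4 in 2D, 76 and 119 in D3 organoids and 39 and 18 in D7 organoids, with 14.7 ± 2.67 CPM in D3 organoids, 4.65 ± 0.190 CPM *in vivo*, 4.18 ± 0.903 CPM in D7 organoids and 0.370 ± 0.524 CPM in 2D. D3 organoids were above, and 2D below, every other library, whereas *in vivo* TECs and D7 organoids overlapped. The log2 fold change was -3.59 ± 0.76 for 2D over *in vivo* and 1.66 ± 0.51 for D3 organoids over *in vivo*. All 4 counts in 2D came from the second library. Without the first 2D library the value over *in vivo* was -2.61, and without the second 2D was at 0 and no fold was taken.

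*Cxcl5*, an epithelial neutrophil attractant, had 5 and 97 counts *in vivo*, 1004 and 985 in 2D, 128 and 185 in D3 organoids and 204 and 145 in D7 organoids. In 2D it stood at 182 ± 0.307 CPM, in D3 organoids at 23.7 ± 2.98 CPM, in D7 organoids at 26.9 ± 2.36 CPM and *in vivo* at 7.25 ± 9.03 CPM. Both 2D libraries were above all others, the organoid groups overlapped each other, and the *in vivo* libraries were far apart. The log2 fold change of 2D over *in vivo*, 4.58 ± 0.49, was 3.74 without the first *in vivo* library and 7.69 without the second. D3 organoids over *in vivo* gave 1.64 ± 0.49, with 0.79 and 4.75 without those libraries, and D7 organoids over *in vivo* gave 1.82 ± 0.49, with 0.96 and 4.91. The difference between organoids and 2D depended less on any library, at -2.94 ± 0.44 for D3 and -2.76 ± 0.43 for D7.

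*Cxcl1*, *Cxcl2* and *Cxcl3* encode closely related neutrophil attractants. *Cxcl1* and *Cxcl2* lie at the other end of the stretch from *Cxcl5*, whereas *Cxcl3* follows *Pf4*. *Cxcl2* had 0 and 14 counts *in vivo*, 86 and 38 in 2D, 14 and 12 in D3 organoids and 11 and 10 in D7 organoids, and the 2D libraries were above all others at 11.3 ± 6.05 CPM. Its log2 fold change was -2.49 ± 0.80 for D3 organoids over 2D and -2.78 ± 0.82 for D7 organoids over 2D, and without the first 2D library, which held 86 of the 2D counts, these were -1.81 and -2.09. All 14 *in vivo* counts of *Cxcl2* were in the second library, so the value of 2D over *in vivo*, 3.42 ± 0.86, was 2.51 without the first *in vivo* library and not taken without the second. *Cxcl3* had 1 and 0 counts *in vivo*, 12 and 5 in 2D, 0 and 0 in D3 organoids and 1 and 1 in D7 organoids and did not pass the filter on low counts. Its level in 2D over *in vivo* had a ratio of 20.1 (95% counting interval 3.14 to 838), and it was at least 3.36-fold higher in 2D than in D3 organoids. Of the 50-base words in the last 500 bases of *Cxcl2* transcripts, 7.63% also occur in transcripts of *Cxcl3*, upstream of their last 500 bases. Words from the last 500 bases of the other 9 genes were found in no other gene.

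*Cxcl1* differed in pattern from its neighbours. It had 39 and 25 counts *in vivo*, 30 and 19 in 2D, 29 and 18 in D3 organoids and 17 and 4 in D7 organoids, and its means ran from 5.14 ± 2.30 CPM *in vivo* through 4.48 ± 1.36 CPM in 2D and 3.70 ± 1.68 CPM in D3 organoids to 1.45 ± 0.929 CPM in D7 organoids. The *in vivo*, 2D and D3 libraries overlapped, and the D7 libraries were below all of them. The log2 fold change of 2D over *in vivo* was -0.19 ± 0.65, and it turned to 0.35 without the first *in vivo* library.

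**Figure D2:**
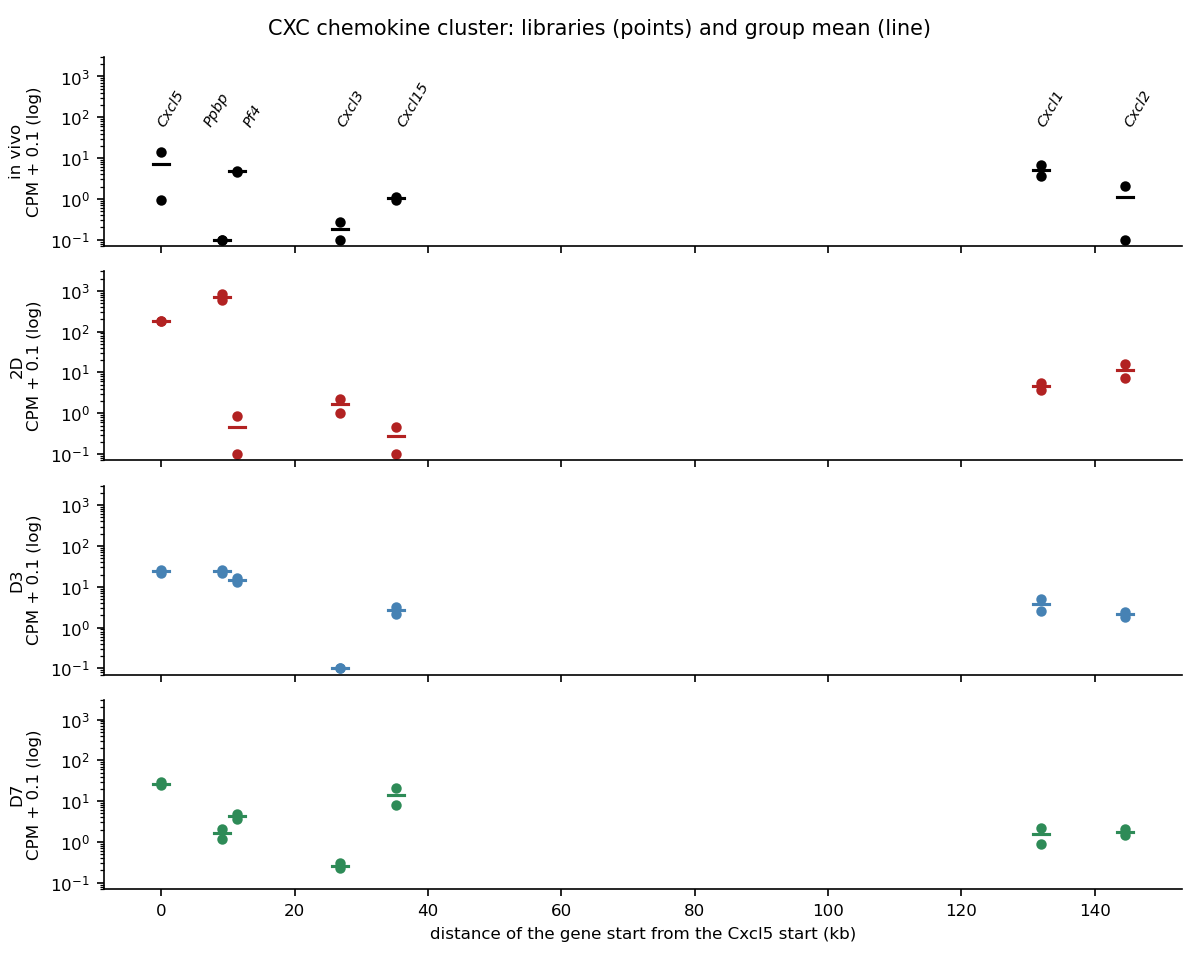
CPM + 0.1 on a log axis for the 7 protein-coding genes of the chromosome 5 cluster, placed by the distance of each start from that of *Cxcl5* in kb, with 1 panel for each group, a point for each library and a line at the mean. *Ppbp* is highest in 2D and at 0 *in vivo* while *Pf4*, the next gene, is lowest in 2D, and *Cxcl15* is highest in D7 organoids.

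Between *Cxcl5* and *Cxcl2*, 14 genes are annotated and 11 had a row in the count data, 7 of them protein coding. The protein-coding gene that was not among the 10 is *Cxcl15*, which encodes lungkine, a neutrophil attractant. It had 6 and 6 counts *in vivo*, 2 and 0 in 2D, 18 and 15 in D3 organoids and 168 and 41 in D7 organoids, and rose in D7 organoids over *in vivo* (log2 fold change 3.93 ± 0.69, adjusted p = 0.00027), over 2D (6.17 ± 0.88, adjusted p = 2.4e-05) and over D3 organoids (2.51 ± 0.61, adjusted p = 0.0077). These values were 3.08, 5.25 and 1.66 at their lowest with a library left out. The last call was lost without the second D3 library or the first D7 library, which held 168 of the 209 D7 counts. *Cxcl15* also rose in D3 organoids over 2D (3.66 ± 0.98, adjusted p = 0.007), a call that was lost without the second 2D library (2.74) and with limma-voom. *Gm43085*, a gene model without experimental support next to *Cxcl15* on the same strand, had 20 and 9 counts in D7 organoids and at most 3 elsewhere. *Gm55976*, *Gm43086* and *Gm55977* were at 0 in every library. By group mean, neighbouring genes of this cluster thus had their highest level in different groups. *Cxcl5*, *Ppbp*, *Cxcl3* and *Cxcl2* were highest in 2D, *Pf4* in D3 organoids, *Cxcl15* in D7 organoids and *Cxcl1* *in vivo*. The *in vivo*, 2D and D3 libraries of *Cxcl1* overlapped, and *Cxcl3* rested on 12 and 5 counts in 2D.

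*Cxcl10*, induced by interferons and recognised by *Cxcr3* on activated T cells, was the only one of the 10 with its highest level in both *in vivo* libraries and no overlap with a culture. It had 849 and 993 counts *in vivo*, 59 and 53 in 2D, 2 and 6 in D3 organoids and 7 and 3 in D7 organoids. The means were 143 ± 5.44 CPM *in vivo*, 10.3 ± 0.622 CPM in 2D, 0.586 ± 0.353 CPM in D3 organoids and 0.728 ± 0.194 CPM in D7 organoids, where the organoid groups overlapped each other. The log2 fold change over *in vivo* was -3.80 ± 0.23 for 2D, -7.84 ± 0.33 for D3 and -7.53 ± 0.32 for D7 organoids, and D3 organoids over 2D gave -4.03 ± 0.38. Without the second D3 library, which held 6 of the 8 D3 counts, the D3 values were -8.58 over *in vivo* and -4.83 over 2D.

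The other ligands of *Cxcr3*, *Cxcl9* and *Cxcl11*, flank *Cxcl10* within 44.1 kb and are not among the chosen genes. *Cxcl9* had 57 and 125 counts *in vivo*, 1 and 0 in 2D, 0 and 0 in D3 organoids and 0 and 0 in D7 organoids, too few libraries above 1 CPM for the fit. It was at least 29.7-fold higher *in vivo* than in D3 organoids and at least 28.5-fold higher than in D7 organoids. *Cxcl11* had 33 and 65 counts *in vivo*, 11 and 0 in 2D, 0 and 0 in D3 organoids and 0 and 0 in D7 organoids. It fell in 2D relative to *in vivo* (-2.87 ± 1.09, adjusted p = 0.047), a call lost with DESeq2's Wald test and without the second 2D library (-1.88) or the second D7 library, and was at least 16.1-fold lower in D3 and at least 15.5-fold lower in D7 organoids. *Ifng*, the gene of interferon γ, had 12 and 6 counts *in vivo* and 0 in each culture. As a sum, thymocyte markers were also highest *in vivo*, but unlike *Cxcl10* they were not highest in 2D among the cultures. The summed level of 12 of them was 296 to 677 CPM *in vivo* and 2.54 to 7.04 in 2D, 3.54 to 4.74 in D3 and 5.07 to 9.85 in D7 organoids. Within the *in vivo* group, the first library had more thymocyte RNA, less *Cxcl9* (9.89 against 17.6 CPM) and less *Cxcl11* (5.73 against 9.14 CPM), and *Cxcl10* was at 147 and 139.6 CPM. The part of thymocyte RNA in these levels was not tested.

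*Cxcl16* encodes a membrane-bound chemokine and scavenger receptor that is shed by *Adam10*. It had 28 and 55 counts *in vivo*, 392 and 400 in 2D, 25 and 75 in D3 organoids and 95 and 67 in D7 organoids, with 72.6 ± 2.14 CPM in 2D and 6.30 ± 2.03 CPM *in vivo*. The 2D libraries were above all others, *in vivo* TECs and D3 organoids overlapped, and D7 organoids lay above both at 12.5 ± 1.03 CPM. The log2 fold change was 3.51 ± 0.33 for 2D over *in vivo*, -3.28 ± 0.33 for D3 organoids over 2D and 0.73 ± 0.34 for D7 over D3 organoids. The D3 libraries were apart, and D3 organoids over *in vivo*, 0.23 ± 0.36, turned to -0.53 without the second D3 library. Without that library D3 organoids over 2D was -4.08 and D7 over D3 organoids 1.49, and the latter was 0.25 without the first D3 library. *Adam10* itself rose in D3 organoids over *in vivo* (1.18 ± 0.18, adjusted p = 8.6e-05) and fell in D7 relative to D3 organoids (-1.01 ± 0.18, adjusted p = 0.00091). In 2D over *in vivo* *Adam10* rose by less (0.65 ± 0.18, adjusted p = 0.0079), a call that was lost without the second *in vivo* or the first 2D library. *Adam17* did not pass the test in any comparison.

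*Ccl2*, the monocyte attractant MCP-1, had 3 and 3 counts *in vivo*, 53 and 89 in 2D, 2 and 9 in D3 organoids and 3 and 0 in D7 organoids. The 2D libraries were above all others, at 13.05 ± 4.86 CPM, and each library of the other 3 groups held 9 counts or fewer. D3 organoids overlapped both *in vivo* TECs and D7 organoids. The *in vivo* and D7 libraries were all at or below the floor of 3 counts, so these groups could not be ordered. The ratio of 2D to *in vivo* was 27.9 (95% counting interval 12.5 to 77.4) and that of 2D to D7 organoids 57.1 (95% counting interval 19.1 to 280.0). *Ccl20*, the ligand of *Ccr6*, had 11 and 0 counts *in vivo*, 0 and 0 in 2D, 9 and 11 in D3 organoids and 3 and 3 in D7 organoids. It was at 0 in 2D, where several of the other chemokines were highest, and at least 2.77-fold higher in D3 organoids. The *in vivo* counts of *Ccl20* were all in the first library, so D3 organoids and *in vivo* TECs could not be ordered. Counting intervals and floors cover counting error only.

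In the fit of 14504 genes by edgeR's quasi-likelihood test with a threshold of 0.05 on the adjusted p, 9 of the 10 genes passed the filter on low counts, and *Cxcl3* did not. In 2D over *in vivo*, 5 of the 9 were among the genes called higher and 2 among those called lower, where 19.9% and 21.7% of all genes were called. In D3 organoids over *in vivo* the counts were 3 higher and 1 lower (all genes 14.1% and 14%), and in D7 organoids over *in vivo* also 3 and 1 (18% and 16.8%). In D3 organoids over 2D, 2 were called higher and 6 lower (19.3% and 19.1%), and in D7 organoids over 2D 1 and 6 (24.4% and 21.1%). In D7 over D3 organoids, 0 were called higher and 2 lower (10.9% and 9.9%). These 6 comparisons share libraries, and the genes were selected on the same levels. Nothing is therefore read from the counts or from the medians that follow. The median log2 fold change of the 9 genes was 3.42 in 2D over *in vivo* and -2.94 in D3 organoids over 2D, against -0.06 and 0.02 over all genes. With *Ppbp* at its bound and *Ccl20* left out, the first was 3.46.

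The 10 genes did not share a pattern. As a measure of likeness, log2(CPM + 1) was centred for each gene, and the root mean square difference was taken over the 8 libraries, among 9961 genes of at least 10 CPM in both libraries of their highest group. The nearest genes to *Ppbp* were *Tm4sf1* (0.70), *Inhba* (0.76) and *Ecm1* (0.98), all of them highest in 2D. Those to *Pf4* were *Lingo1* (0.30), *Cenpn* (0.31) and *Cdc25c* (0.35), highest in D3 organoids. *Cxcl5* was nearest to *Cryab* (0.27), *Kif26b* (0.64) and *Macc1* (0.64), and *Cxcl16* to *Plppr4* (0.22), *Mpzl3* (0.29) and *Mmp23* (0.30). *Cxcl10* was nearest to *Stat4* (0.57), *Fosb* (0.58) and *Fos* (0.65). Among these 5 themselves, *Cxcl5* and *Cxcl16* were nearest to each other (1.03). The nearest of the 5 was *Cxcl5* for *Ppbp* (2.23) and *Cxcl16* for both *Pf4* (2.57) and *Cxcl10* (3.05), and the other 5 genes were below the limit on CPM. The measure weighs size as well as shape, and the 8 points of each gene are the same libraries.

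Genes of the same signalling were taken from 9 lists of 108 genes, of which 68 passed the filter. In 2D over *in vivo*, 33 of the 68 passed the test, 17 higher and 16 lower (all genes 19.9% and 21.7%). In D3 organoids over *in vivo* 35 did, 10 higher and 25 lower (all genes 14.1% and 14%). In D7 organoids over *in vivo* 35 did, 13 higher and 22 lower (all genes 18% and 16.8%). D3 organoids over 2D gave 40, 11 higher and 29 lower (all genes 19.3% and 19.1%). D7 organoids over 2D gave 35, 13 higher and 22 lower (all genes 24.4% and 21.1%). D7 over D3 organoids gave 25, 19 higher and 6 lower (all genes 10.9% and 9.9%). With scaling by library size alone, the split was 13 higher and 18 lower for D3 organoids over 2D and 15 and 16 for D7 organoids over 2D. That scaling moved the median of all genes to -0.23 in 2D over *in vivo*, 0.29 in D3 organoids over 2D and 0.31 in D7 organoids over 2D, whereas with TMM it was between -0.06 and 0.10 in all 6 comparisons.

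**Figure D3:**
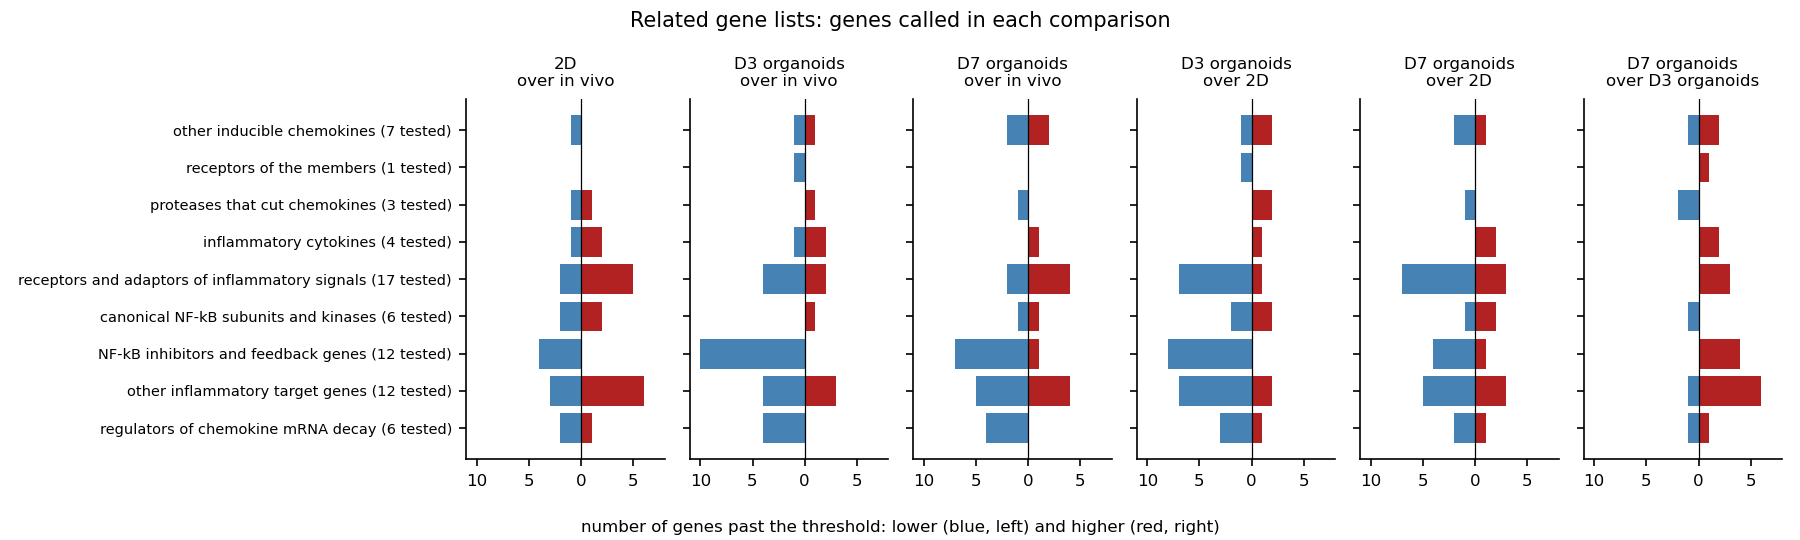
Number of genes of 9 related lists (rows, with the number tested) that passed the test in each of 6 comparisons (panels), with lower genes to the left in blue and higher genes to the right in red. Of 12 NF-κB inhibitors and feedback genes, 10 are lower in D3 organoids than *in vivo* and 0 higher (all genes 14% and 14.1%).

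Among inhibitors of NF-κB and other genes that it induces as feedback, 4 of 12 were lower in 2D than *in vivo* and 0 higher. In D3 organoids 10 were lower and 0 higher, and in D7 organoids 7 were lower and 1 higher. Of all genes, 21.7%, 14% and 16.8% were lower and 19.9%, 14.1% and 18% higher, in the same order. The median log2 fold change of the 12 was -0.37, -1.69 and -0.99, against -0.06, -0.01 and 0.01 over all genes. *Nfkbia*, which encodes IκBα, fell from 907 ± 83.4 CPM *in vivo* to 330.1 ± 21.3 CPM in 2D (-1.46 ± 0.15, adjusted p = 5e-07), 264 ± 17.1 CPM in D3 (-1.78 ± 0.15, adjusted p = 9.5e-08) and 395 ± 45.8 CPM in D7 organoids (-1.20 ± 0.15, adjusted p = 8.3e-06). *Birc3*, the gene of the ubiquitin ligase cIAP2, had 42.3 CPM *in vivo* and fell in 2D (-1.83 ± 0.31, adjusted p = 0.00012) and in D7 organoids (-2.38 ± 0.31, adjusted p = 1.6e-05). *Nfkbiz* encodes IκBζ, a nuclear cofactor needed for some of the NF-κB targets. It fell in D3 organoids relative to *in vivo* (-2.23 ± 0.20, adjusted p = 1.8e-07) and to 2D (-1.84 ± 0.20, adjusted p = 1.3e-06), while 2D over *in vivo*, -0.39 ± 0.19, did not pass.

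D3 organoids were below 2D for 8 of the 12 feedback genes and above for 0 (all genes 19.1% and 19.3%). Among the 8, *Bcl3*, another nuclear IκB protein, was at -2.24 ± 0.29, adjusted p = 1e-05. For D7 over D3 organoids, 4 of the 12 were higher and 0 lower (all genes 10.9% and 9.9%). Among the 4 were *Tnip1*, a binding partner of A20 (1.54 ± 0.23, adjusted p = 0.00024), and *Nfkbie*, the gene of IκBε (2.26 ± 0.46, adjusted p = 0.0024, or 1.83 without the first D3 library and 2.92 without the second D3 library). The call of *Nfkbia* there (0.58 ± 0.15, adjusted p = 0.01) was lost without the second D3 or the first D7 library. The chemokine genes *Cxcl5*, *Cxcl2*, *Ccl2* and *Cxcl16* were highest in 2D, and *Nfkbia* was below *in vivo* in every culture and lowest in D3 organoids. How these levels relate was not tested.

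Of 6 NF-κB subunits and kinases, 2 were higher and 2 lower in 2D than *in vivo* (all genes 19.9% and 21.7%). *Rela*, encoding the p65 subunit, rose (0.72 ± 0.18, adjusted p = 0.0035), as did *Ikbkg*, encoding the regulatory subunit of the IκB kinase (0.98 ± 0.26, adjusted p = 0.0059). *Nfkb1*, the gene of p105 and p50, fell (-1.21 ± 0.17, adjusted p = 1.5e-05), as did *Rel* (-1.32 ± 0.30, adjusted p = 0.0017). *Nfkb1* was at 219 ± 4.55 CPM in D3 organoids against 59.0 ± 5.82 CPM in 2D (1.89 ± 0.17, adjusted p = 1.1e-07). *Fam3a* and *G6pdx* overlap *Ikbkg* on the other strand with up to 207 and 210 counts, and the gene model *Gm43430* overlaps *Nfkb1* on the same strand with up to 197.

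Upstream of NF-κB, 5 of 17 receptors and adaptors were higher and 2 lower in 2D than *in vivo* (all genes 19.9% and 21.7%). *Tlr3*, a receptor of double-stranded RNA, had 2 and 18 counts *in vivo*, 129 and 134 in 2D, 35 and 61 in D3 organoids and 70 and 34 in D7 organoids and rose in 2D (3.97 ± 0.51, adjusted p = 7.5e-06, or 3.24 without the first *in vivo* library and 6.04 without the second *in vivo* library). *Ripk1*, a kinase of TNF signalling, also rose (0.86 ± 0.25, adjusted p = 0.011), a call lost without the first *in vivo* or the second 2D library, with *Serpinb6a* on its other strand at up to 1022 counts. *Tnfrsf1a*, the main TNF receptor, fell in 2D (-1.11 ± 0.19, adjusted p = 0.00014) and rose in D3 (0.84 ± 0.18, adjusted p = 0.0018) and D7 organoids (0.74 ± 0.18, adjusted p = 0.004). *Il1r1*, the interleukin 1 receptor, fell in 2D (-1.31 ± 0.25, adjusted p = 0.00052) and was higher in D7 organoids than in 2D (1.78 ± 0.25, adjusted p = 2.3e-05). *Ifngr1* and *Ifngr2*, the subunits of the interferon γ receptor, were both lower in D3 organoids than *in vivo* (-1.24 ± 0.22, adjusted p = 0.00039, and -1.36 ± 0.29, adjusted p = 0.0019).

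The cytokines that commonly induce these chemokines were scarce. *Il6*, *Il17a*, *Il17f* and *Lta* had at most 3 counts in any library, *Tnf* at most 19, *Il1b* at most 6 and *Il1a* at most 12, with 5 and 6 counts of *Il1b* and 12 and 5 of *Il1a* in 2D and 0 of either in the organoids. *Il33*, an alarmin stored in epithelial nuclei, had 9 and 21 counts *in vivo*, 311 and 286 in 2D, 1198 and 1272 in D3 organoids and 1338 and 721 in D7 organoids. It rose in 2D (4.55 ± 0.26, adjusted p = 3.2e-10), D3 (6.34 ± 0.26, adjusted p = 1.2e-11) and D7 organoids (6.04 ± 0.26, adjusted p = 2.7e-11) over *in vivo*. *Tslp*, an epithelial cytokine, rose in 2D (3.63 ± 0.82, adjusted p = 0.0018) and D3 organoids (3.15 ± 0.82, adjusted p = 0.0079), and 8 of 8 *in vivo* counts were in the second library. Without the first *in vivo* library these values were 2.75 and 2.27, and without the second no fold was taken. *Il1rn*, the interleukin 1 receptor antagonist, fell in 2D (-2.57 ± 0.60, adjusted p = 0.0023, or -3.21 without the first 2D library and -2.10 without the first *in vivo* library).

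Other targets of inflammatory signals split in 2D, where 6 of 12 were higher and 3 lower than *in vivo* (all genes 19.9% and 21.7%). *Lcn2*, encoding lipocalin 2, was at 181 ± 6.57 CPM in 2D (4.28 ± 0.47, adjusted p = 1.1e-06) and again at 138 ± 7.76 CPM in D7 organoids (3.89 ± 0.47, adjusted p = 5.9e-06). Its *in vivo* libraries had 8 and 117 counts, and 2D over *in vivo* was 3.46 without the first *in vivo* library and 7.01 without the second *in vivo* library, and D7 organoids over *in vivo* 3.06 without the first *in vivo* library and 6.61 without the second *in vivo* library. *Csf1*, the macrophage growth factor, rose to 56.4 ± 0.957 CPM in 2D (2.52 ± 0.28, adjusted p = 1e-06) and was lower in D3 organoids (-1.75 ± 0.26, adjusted p = 4.4e-05). *Il23a*, which encodes a subunit of interleukin 23, had 17 and 13 counts *in vivo*, 195 and 149 in 2D, 17 and 2 in D3 organoids and 0 and 2 in D7 organoids and was lower in D3 organoids than in 2D (-4.38 ± 0.62, adjusted p = 2.7e-05, or -6.72 without the first D3 library and -3.43 without the second D3 library). *Lif*, a cytokine of the interleukin 6 family, rose in 2D over *in vivo* (5.21 ± 1.13, adjusted p = 0.0013).

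The adhesion genes *Vcam1* and *Icam1* went the other way. *Vcam1* fell from 242 ± 5.50 CPM *in vivo* to 56.1 ± 1.11 CPM in 2D (-2.11 ± 0.18, adjusted p = 4.8e-08) and 2.81 ± 1.02 CPM in D3 organoids (-6.44 ± 0.24, adjusted p = 7.2e-12), and was higher in D7 than in D3 organoids (3.45 ± 0.25, adjusted p = 1.2e-07). *Icam1* fell in 2D (-1.69 ± 0.18, adjusted p = 9e-07) and D3 organoids (-1.20 ± 0.18, adjusted p = 5.4e-05). In D7 organoids, *C3*, a complement gene, and *Saa3*, an acute-phase gene, rose over *in vivo* (2.43 ± 0.41, adjusted p = 0.00018, and 3.14 ± 0.75, adjusted p = 0.0037), the second not with DESeq2's Wald test and at 2.31 without the first *in vivo* library and 5.75 without the second *in vivo* library.

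**Figure D4:**
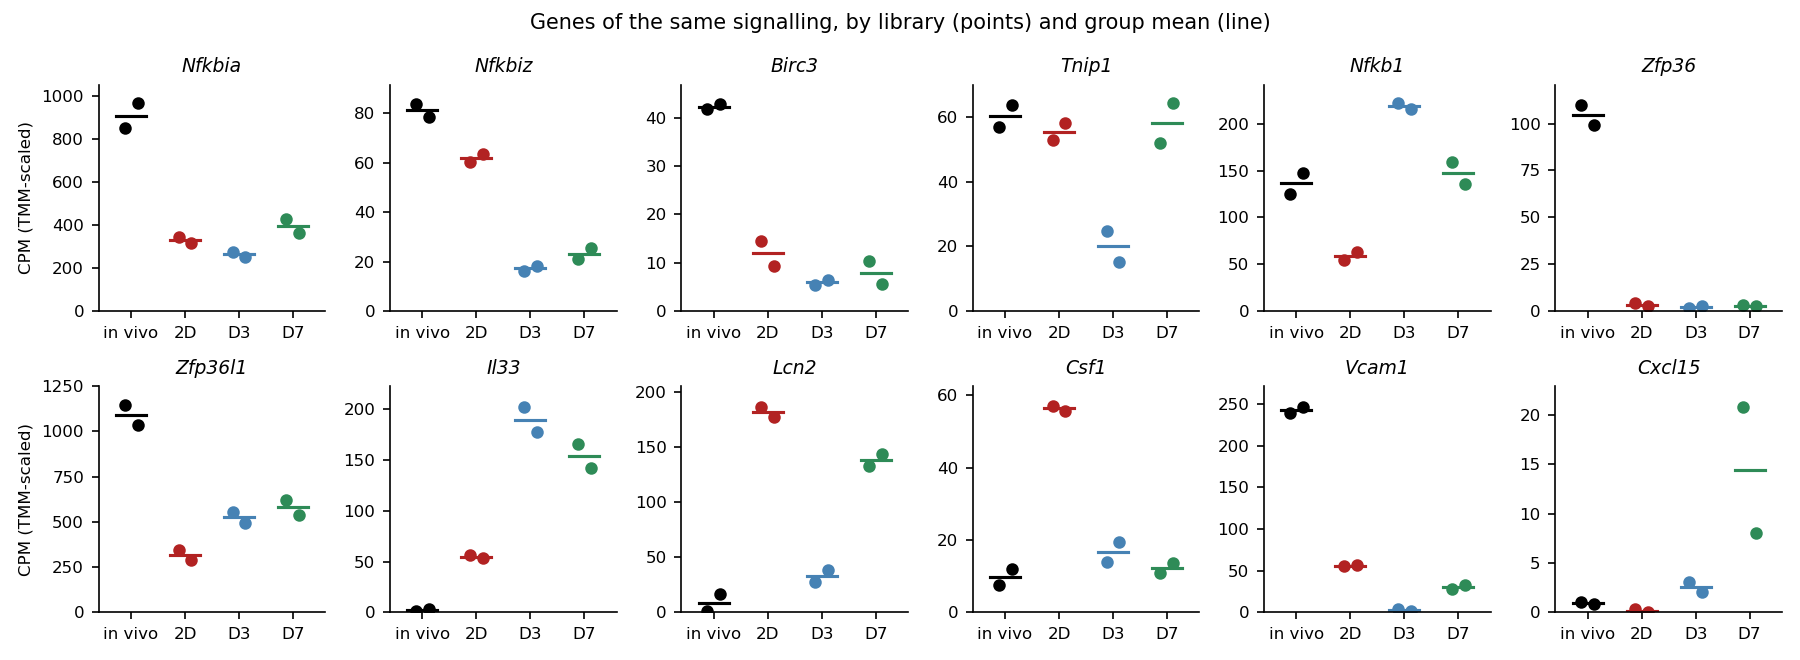
CPM of 12 related genes (vertical axes, linear, a scale for each gene) in the 4 groups, with a point for each library and a line at the group mean. *Nfkbia*, *Birc3*, *Zfp36* and *Vcam1* are highest in both *in vivo* libraries, *Lcn2* and *Csf1* in both 2D libraries, *Il33* and *Nfkb1* in both D3 libraries, and *Cxcl15* in both D7 libraries.

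Chemokine mRNAs are short-lived, in part because *Zfp36* (tristetraprolin) and its relatives bind their AU-rich elements. *Zfp36* had 632 and 704 counts *in vivo*, 22 and 15 in 2D, 8 and 19 in D3 organoids and 25 and 13 in D7 organoids, and fell in 2D (-4.94 ± 0.30, adjusted p = 5.8e-10), D3 (-5.66 ± 0.31, adjusted p = 4.3e-10) and D7 organoids (-5.17 ± 0.30, adjusted p = 8.8e-10). *Zfp36l1* fell in all 3 cultures, the most in 2D (-1.79 ± 0.15, adjusted p = 5.3e-08), and was higher in D3 organoids than in 2D (0.73 ± 0.15, adjusted p = 0.00091). *Rc3h1*, which encodes the RNA-binding protein roquin, rose in 2D (0.82 ± 0.20, adjusted p = 0.0029). Of the 6 regulators of decay tested, 2 were lower and 1 higher in 2D than *in vivo*, 4 lower in D3 and 4 in D7 organoids. Of all genes, 21.7% were lower and 19.9% higher in 2D, and 14% and 16.8% were lower in D3 and D7 organoids. *Zfp36* is also an immediate early gene, as are *Fos* and *Fosb*, which were near *Cxcl10* in pattern, and only the *in vivo* libraries were lysed directly after digestion and sorting. That handling and the *in vivo* group cannot be told apart.

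Chemokine receptor genes on the related list were at or near the floor. *Cxcr1*, *Cxcr3*, *Cxcr6* and *Ackr1* had 0 counts in every library, *Cxcr2* had 4 and 0 *in vivo* and 0 elsewhere, and *Ackr2* had 1 count in all. *Ccr6*, the receptor of *Ccl20*, had 8 and 39 counts *in vivo* and 0 in the cultures, *Ccr2* had 16 and 2 and *Ccr4* 13 and 12. *Ccrl2*, an atypical receptor that does not signal, was the only receptor tested, and it was lower in D3 organoids than *in vivo* (-3.43 ± 1.14, adjusted p = 0.032), though not with limma-voom, nor without the first *in vivo* library (-2.79) or any of the 4 organoid libraries. *Dpp4*, the protease that clips *Cxcl10*, had 163 and 59 counts *in vivo*, 4 and 4 in 2D, 68 and 43 in D3 organoids and 9 and 4 in D7 organoids. It fell in 2D (-4.60 ± 0.69, adjusted p = 3.7e-05) and D7 organoids (-4.19 ± 0.64, adjusted p = 7.6e-05) relative to *in vivo*, with -3.47 and -3.07 without the first *in vivo* library and -5.23 and -4.83 without the second. Of other inducible chemokines, *Cx3cl1* rose in D3 organoids over *in vivo* (1.04 ± 0.23, adjusted p = 0.0026), *Cxcl17* rose in D7 over D3 organoids (4.41 ± 1.21, adjusted p = 0.016) but not without the second D3 library (3.31, where a lone D3 library with 3 counts remains), and *Cxcl14* fell in D7 relative to D3 organoids (-3.91 ± 1.15, adjusted p = 0.023) but not with limma-voom, nor without the second D3 library (-3.21) or either D7 library. Of the 24 on that list, 7 were tested.

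Markers of other cells were summed in each library, since *Ppbp* and *Pf4* are classical platelet genes, and macrophages and other leukocytes also make chemokines. Of 13 platelet and megakaryocyte markers, *Gp1ba*, *Gp6*, *Clec1b* and *Tubb1* were at 0 in every library and 8 of 13 were at or below 3 counts everywhere. Their sum was 4.78 to 7.63 CPM *in vivo*, 10.5 to 10.7 in 2D, 1.01 to 3.76 in D3 and 4.82 to 5.52 in D7 organoids, and in 2D it was mostly *Itgb3*, an integrin that other cells express too, with 54 and 48 counts. The 4 markers at 0 were so in all groups and cannot order the groups by platelet RNA. *Itga2b*, of the same list, had 4 and 19 counts *in vivo* and 4 and 5 in 2D. Its counts were 1 and 10 in D3 and 31 and 21 in D7 organoids. *Nfe2* had 26 and 0 counts *in vivo*, 0 and 0 in 2D and in D3, and 1 and 0 in D7 organoids. The part of platelet RNA in the *Ppbp* level was not tested.

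Macrophage and monocyte markers were 16 genes led by *Lyz2*, *Cd14* and *Ctss*. Their sum was 19.3 to 22.5 CPM *in vivo*, 6.71 to 11.7 in 2D, 2.86 to 3.76 in D3 and 17.9 to 21.6 in D7 organoids. *Fcgr1* was at 0 throughout. Not every gene of the list followed the sum. Of the 16, 11 exceeded 3 counts in a library *in vivo*, 7 in 2D, 3 in D3 and 4 in D7 organoids. *Lyz2* had 18 and 17 counts *in vivo* and 98 and 52 in D7 organoids, whereas *Ctss* had 45 and 41 and 0 and 2. *Cd14* was at 2.38 CPM in 2D and 0.682 CPM *in vivo*, and *Csf1r* had 3 and 5 counts in 2D and 0 elsewhere. For 8 neutrophil markers the sums were 8.58 to 11.3, 1.11 to 1.27, 3.62 to 4.38 and 4.93 to 5.44 CPM, with *Elane*, *Mpo*, *Retnlg* and *Csf3r* at 0. In the organoids only *Camp* exceeded 3 counts, with 26 and 25 in D3 and 44 and 23 in D7. *Camp* had 7 and 0 counts *in vivo*, whereas *S100a8* had 38 and 44 there and 0 in every organoid library. Mesenchymal markers, 10 genes led by *Dcn* and *Thy1* *in vivo*, gave 71.7 to 101, 42.8 to 46.4, 22.6 to 26.8 and 75.1 to 82.7 CPM, and the 7 endothelial and 7 erythroid markers at most 5.20 and 12.5 CPM. The mesenchymal sums *in vivo* and in D7 organoids rested on different genes. *Thy1* had 286 and 151 counts *in vivo* and 3 and 5 in D7 organoids, whereas *Dcn* had 105 and 164 and 432 and 258. The 8 epithelial and TEC markers had counts in every library and summed to 6524 to 6883 CPM *in vivo*, 6876 to 7678 in 2D, 1665 to 1815 in D3 and 2128 to 2221 in D7 organoids. Among them, *Foxn1*, the TEC master regulator, had 1287 and 1945 counts *in vivo*, 47 and 26 in 2D, 52 and 69 in D3 organoids and 489 and 431 in D7 organoids. The part of RNA from other cells in the chemokine levels was not tested.

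**Figure D5:**
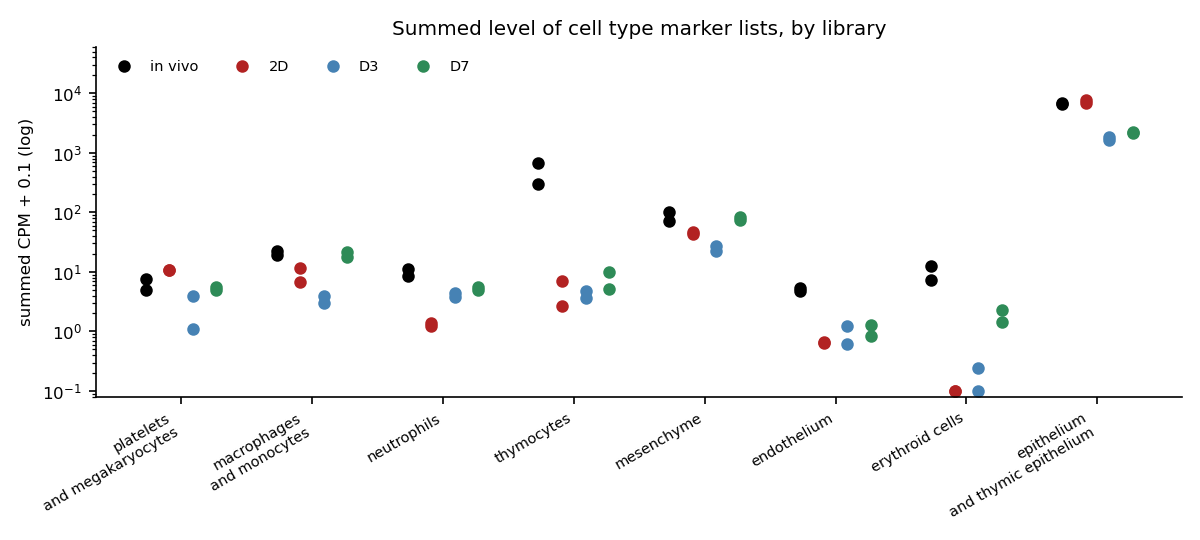
Summed CPM + 0.1 of 8 marker lists (horizontal axis) on a log axis, with a point for each library coloured by group. Thymocyte markers reach 296 to 677 CPM *in vivo* and at most 9.85 in the cultures, platelet markers stay at or below 10.7 in every library, and epithelial markers are above 1665 in all.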

How the data were processed

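Bulk RNA from 8 libraries was analysed, 2 each of *in vivo* TECs, 2D-cultured TECs, D3 organoids and D7 organoids. The authors prepared QuantSeq 3′ libraries from 88 ng of RNA, aligned reads with STAR to GRCm39 and deposited raw counts of reads per Ensembl gene, without normalization. The annotation release, the strand setting and the handling of reads that map to several places are not given in the sources used here. The submitters' processing notes name R 4.1.2, edgeR and limma.

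Symbols and positions came from GENCODE M39 (GRCm39), which matched 56236 of 56923 rows. The 14504 genes that reached 1 CPM in 3 libraries or more were fitted with edgeR 4.0.16 in R 4.3.3, with TMM scaling, 1 coefficient for each group over all 8 libraries, the quasi-likelihood test and Benjamini-Hochberg adjustment. An adjusted p of at most 0.05 was called. SE values are the fitted log2 fold change over the root of its F value. Depth, at 5084715 to 7612532 counts, puts 3 counts at 0.371 to 0.591 CPM. The fit was tested on simulated counts. Replicate libraries differed beyond sampling noise.

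The chemokine genes and all lists were chosen with earlier results of these data known. The text names all 10 chemokine genes. Of each related list in each comparison it names from up to 4 called genes with the highest mean CPM in the higher group and the gene with the largest change. Of each marker list it names up to 3 genes with the highest CPM and defining markers at 0, 1 of which is not reported here. It also names genes inside the chromosome 5 stretch and the 3 nearest genes in pattern. Genes outside this rule (*Cxcl9*, *Ifng*, *Csf1r*, *Psmb11*, the receptors and cytokines at or near the floor, and *Adam17*) were named after their values were seen, as were overlapping genes. Alternatives were DESeq2 1.42.0 size factors and Wald test, library size alone, limma-voom (limma 3.58.1), other filters, a limit on the log2 fold change, ribosomal RNA genes left out, a replicate block and each library left out. Promoter sequences came from RefSeq (GRCm38.p6).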

Additional observations from a re-analysis of the deposited data

How the results depend on the processing

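No called related gene changed sign under any alternative, and 161 of 203 calls were kept under every setting with all 8 libraries. Requiring also an absolute log2 fold change of 1 or more left 2724 of 4089 genes for D3 organoids over *in vivo*, 3311 of 5043 for D7 organoids over *in vivo* and 1688 of 3011 for D7 over D3 organoids. With a filter at a mean of 10 CPM, which tests fewer genes, 16 of 25 related genes were called in D7 over D3 organoids. Library size alone took the share called higher from 47.8% to 37.2% in 2D over *in vivo*, 50.3% to 67.3% in D3 organoids over 2D and 53.6% to 65.2% in D7 organoids over 2D.

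Leaving out 1 library, which leaves a group with a lone library assumed to vary like the others, gave 4543 to 6080 for 2D over *in vivo*, 2886 to 3906 for D3 organoids over *in vivo*, 3015 to 5031 for D7 organoids over *in vivo*, 4130 to 5965 for D3 organoids over 2D, 4708 to 6884 for D7 organoids over 2D and 1183 to 3417 for D7 over D3 organoids. Related genes called numbered 25 to 34 for 2D over *in vivo*, 27 to 35 for D3 organoids over *in vivo*, 26 to 36 for D7 organoids over *in vivo*, 26 to 41 for D3 organoids over 2D, 27 to 36 for D7 organoids over 2D and 13 to 27 for D7 over D3 organoids. The lowest counts for D7 over D3 organoids came without the second D7 library (all genes) and without the second D3 library (related genes), and for the 26 of D3 organoids over 2D without the first D3 library. The chemokine genes' fitted values changed sign 14 times, all from a size below 1 on the log2 scale and 13 of them with a library left out.

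Replicate numbers were shared by the groups but nothing in the labels says they mark a batch, and correlations of same-numbered deviations were 0.0377 to 0.149. With a replicate block, 6366, 4475, 5452, 5925, 6907 and 3585 genes were called in the order above, and 33, 38, 38, 40, 36 and 28 related genes.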
